A study of Mus musculus with 4 samples.

Results

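Mammary stromal fibroblasts were looked for in 4 droplet-based 3′ RNA libraries of mouse mammary epithelial cells. A cell counted as a member when its barcode had at least 1000 unique molecular identifiers (UMIs, each standing for 1 captured RNA molecule), at least 8 of them from Col1a1, Col1a2, Col3a1, Dcn and Lum together, and fewer than that sum from Krt5, Krt14, Krt8, Krt18 and Epcam. The rule found 133 members among 17832 such cells, from 18223 deposited barcodes. Corn oil replicate 1 held 1 member, corn oil replicate 2 held 72, 4OHT replicate 1 held 48 and 4OHT replicate 2 held 12. All mice were FVB, homozygous for a floxed Tfap2c (which encodes the transcription factor AP-2γ), and carried Krt5-CreERT2, so the controls carry the floxed gene and the Cre too. Injections, begun at postnatal week 4, delivered corn oil, the vehicle, in 2 libraries and 4-hydroxytamoxifen (4OHT), which activates CreERT2, in the other 2. Harvest was at week 9. The Krt5 promoter drives the Cre in Krt5-expressing epithelial cells, so fibroblasts were not its intended target. The labels do not say how many mice went into a library, and the source named in them is epithelial, so fibroblasts are what remained in that preparation.

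Fibroblasts of the mammary gland build and remodel the collagen-rich matrix around ducts and in the fat pad. They secrete fibrillar collagens, small leucine-rich proteoglycans such as decorin and lumican, proteases and their inhibitors, growth factors for the epithelium, and chemokines that draw in leukocytes. Adventitial fibroblasts, which line vessels and ducts and carry Pi16 and Dpp4, are a known kind found in many tissues.

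The markers themselves showed that the rule had gathered more than 1 kind of cell. At least 1 UMI of Col1a1, Col1a2, Col3a1 or Lum was present in 98 members, called collagen-positive here: 66 in corn oil replicate 2, 25 in 4OHT replicate 1, 7 in 4OHT replicate 2 and none in corn oil replicate 1. The other 35 members met the rule through Dcn alone and are called Dcn-only. These numbered 1 in corn oil replicate 1, 6 in corn oil replicate 2, 23 in 4OHT replicate 1 and 5 in 4OHT replicate 2. Of the 35 Dcn-only members, 24 held at least 6 UMIs of the epithelial genes of the rule, with a median of 19.5 and a maximum of 73. These 24 cells held no UMI of Vim (an intermediate filament protein of mesenchymal cells), Serping1 (an inhibitor of complement C1) or Sparc (a collagen-binding matrix protein). Instead 24 of them held Wfdc2, 23 held Ly6d and 20 held Prlr, the prolactin receptor, all 3 genes used by luminal epithelium. The label of fibroblast therefore went against the data in these 24 cells, of which 19 were from 4OHT replicate 1. The limit of 6 epithelial UMIs and the genes named for these cells were picked after the values were seen, so this is a description. A further Dcn-only member, from 4OHT replicate 2, carried 9 UMIs of endothelial markers. The remaining 10 Dcn-only members, 6 from corn oil replicate 2 and 4 from 4OHT replicate 1, had at most 3 epithelial UMIs. Among them Serping1 was detected in 8 and Clec3b in 8.

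**Figure D1:**
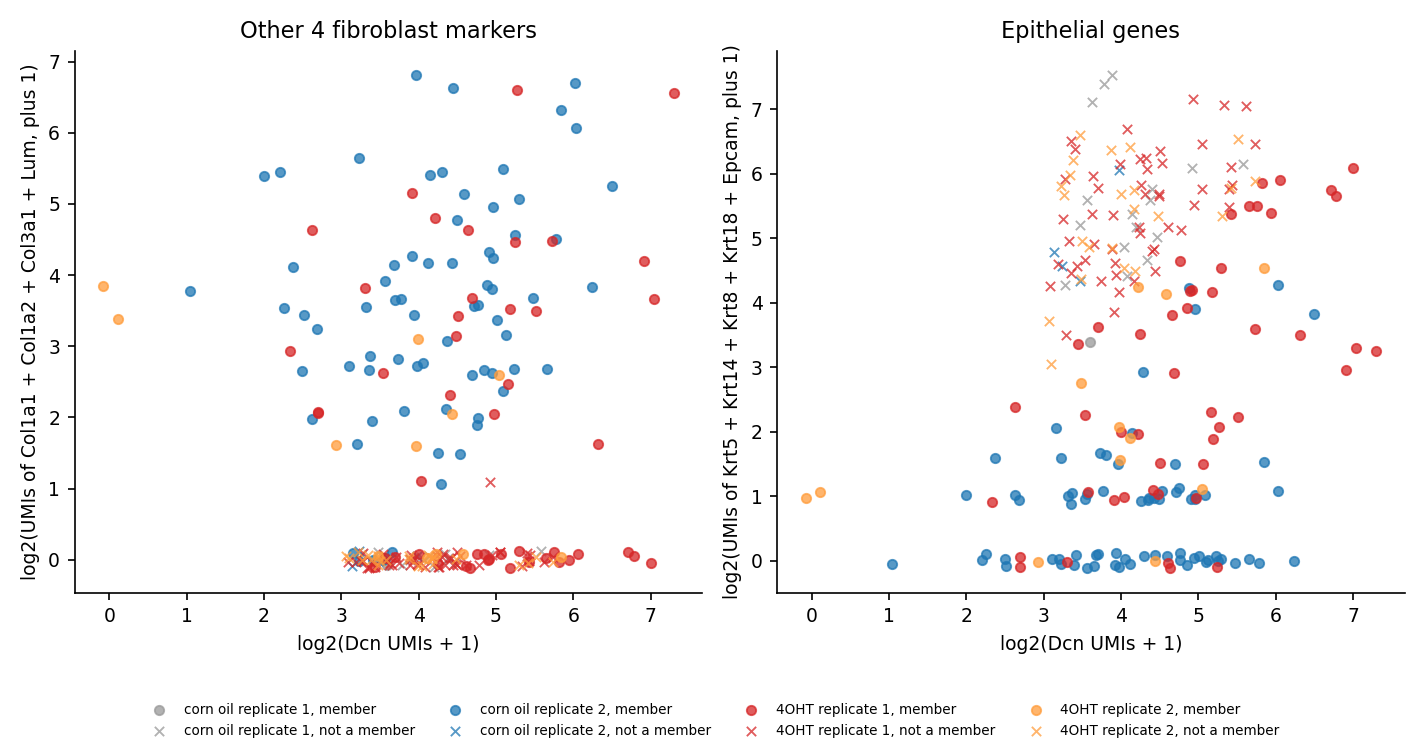
Each point is a cell with at least 8 marker UMIs (circles, 133 members; crosses, 95 cells with at least as many epithelial UMIs), coloured by library, with a small jitter. The x axis is log2(Dcn UMIs + 1); the y axes are log2(UMIs + 1) of the other 4 fibroblast markers (left) and of the 5 epithelial genes (right). A band of cells with high Dcn sits at 0 for the other 4 markers, and most of its cells are high for the epithelial genes.

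Dcn was spread over more cells than the other 4 markers were. Members held 3765 of its 6797 UMIs (55.4%), against 88.9% of the Col1a1 UMIs, 83.0% for Col1a2, 91.1% for Col3a1 and 95.1% for Lum. A further 95 cells had at least 8 marker UMIs but no fewer epithelial UMIs, with a median of 15 UMIs of Dcn and 43 of the epithelial genes. In 94 of these 95 cells the other 4 markers were at 0. Prlr was detected in 85 of them, Krt18 in 95 and Vim in 7. Because of these cells and the 24 Dcn-only members with epithelial transcripts, each result below is given for all members and, where a value or a call differs, for the collagen-positive members alone. The choice of that subset was made after the values were seen. Near the limit of the rule, 13 members had 8 to 10 marker UMIs, and 7 of the 13 were collagen-positive. Another 16 cells lay just outside it, with 5 to 7 marker UMIs, and 11 of these held at least 1 of the other 4 transcripts.

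Markers of other cell types were read over the collagen-positive members as well. The 7 leukocyte markers gave 3 UMIs in all, each from Cd74, and the other 6, Ptprc among them, were at 0. A count of 0 in 98 cells allows up to 3.06% of cells with a UMI, taking 3 counts as the limit. All 4 mesothelial markers were at 0. The 8 pericyte markers gave 9 UMIs, or 25.4, 0 and 79.1 CPM in corn oil replicate 2, 4OHT replicate 1 and 4OHT replicate 2, against 15.0, 18.1 and 17.1 CPM in other cells. Of them 4 were at 0, Rgs5 included, and Kcnj8 was called higher over all members from 6 UMIs, but not without corn oil replicate 2 (edgeR adjusted p = 0.46). Schwann cell markers gave 23 UMIs over all members, of which 15 lay in 2 collagen-positive members of 4OHT replicate 2. Both of these lacked Dcn and together held 110 UMIs of Vim. In that library the summed Schwann list stood at 307.5 CPM (counts scaled to 1e+06 UMIs of the summed cells), against 23.5 in corn oil replicate 2 and 3.5 in 4OHT replicate 1. So 4OHT replicate 2 rests on 5 members with collagen or Lum transcripts and fewer than 3 Schwann marker UMIs. Some collagen-positive members also held epithelial UMIs: 11 of 98 had at least 6 from the genes of the rule, and 6 of these at least 10. With every cell thinned to 1000 UMIs, Krt18 was detected in 16.3% of collagen-positive members (95% exact interval 9.63 to 25.2) and in 17.2% (12.3 to 23.2) of 203 endothelial-marked cells. Median depths before thinning were 3388 and 2241 UMIs, and the unthinned shares were 33.7% and 34.5%. The rules for both kinds of cell limit Krt18, so these shares are a description, and no expression of Krt18 is read from them.

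**Figure D2:**
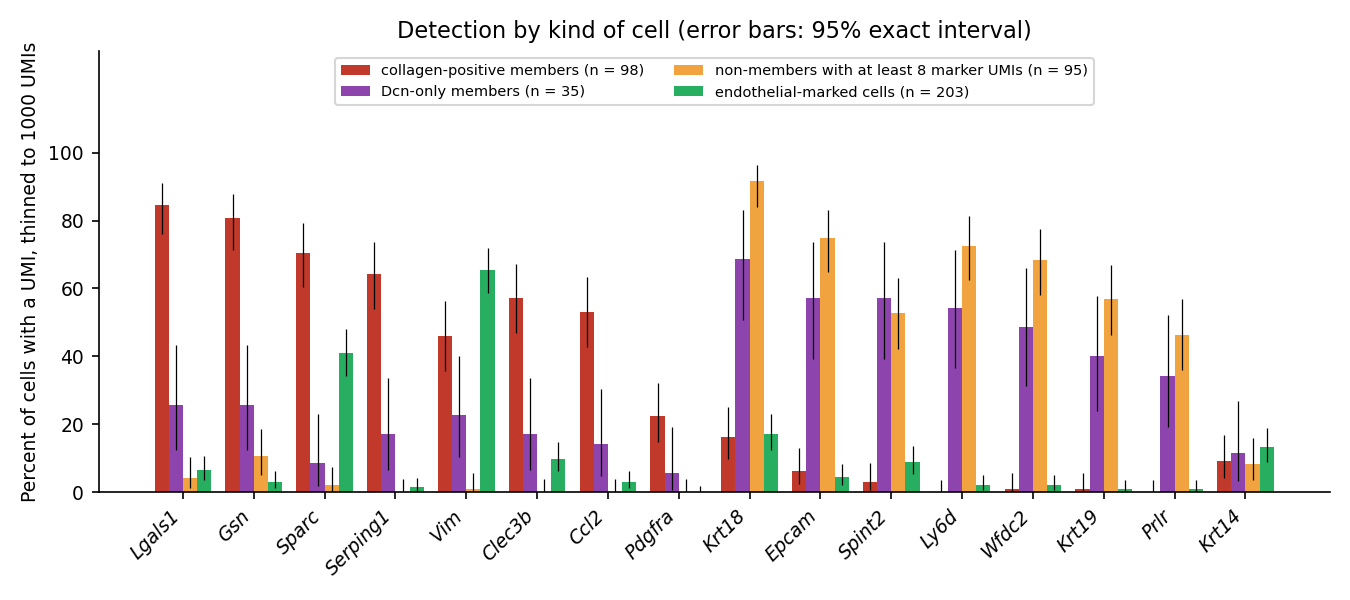
Bars give the percent of cells with at least 1 UMI of each gene after thinning to 1000 UMIs, for collagen-positive members, Dcn-only members, the 95 non-members with at least 8 marker UMIs, and endothelial-marked cells; error bars are 95% exact intervals, which cover counting error only. Serping1 was in 64.3% of collagen-positive members and in none of the 95 non-members, whereas Ly6d was in none of the collagen-positive members and 72.6% of those non-members.

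Members made up 0.0285% of the cells in corn oil replicate 1 (95% exact interval 0.000722 to 0.159), 1.70% in corn oil replicate 2 (1.33 to 2.14), 1.03% in 4OHT replicate 1 (0.759 to 1.36) and 0.221% in 4OHT replicate 2 (0.114 to 0.386). The groups overlapped: both extremes came from corn oil. The mean share was 0.865% ± 1.18 for corn oil and 0.625% ± 0.570 for 4OHT (SD, n = 2 each), a difference of -0.240 percentage points. An exact two-sided permutation test over libraries gave p = 1, and 2 libraries against 2 cannot go below 0.33. The difference changed sign without corn oil replicate 2 (0.596 points) and without 4OHT replicate 2 (0.163 points). Among collagen-positive members alone it was -0.447 points. Total UMIs per library ranged from 17351950 to 22017878, median UMIs per member from 3414.5 to 4657, and no 2 members of different libraries shared a barcode, while library pairs shared 18 to 36 barcodes among all cells.

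**Figure D3:**
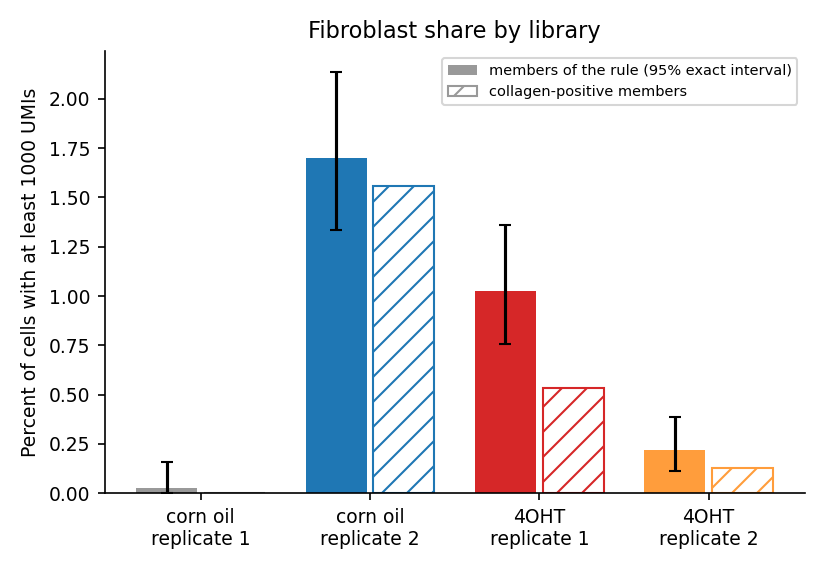
Filled bars give the percent of cells with at least 1000 UMIs that met the rule in each library, with 95% exact intervals; hatched bars count collagen-positive members alone. Corn oil replicate 2 stands highest at 1.70% and corn oil replicate 1 lowest, so the treatments overlap.

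The 133 members were chosen by the UMI counts of 10 genes, so the 5 fibroblast markers among them are described first, as values with no test. Col1a1 (chr11:94936224-94953042) and Col1a2 (chr6:4504814-4541544, both GRCm38) encode the chains of type I collagen. In the members' sums of corn oil replicate 2, 4OHT replicate 1 and 4OHT replicate 2, in that order here and in every triple that follows, Col1a1 stood at 877, 257 and 205 CPM. Col1a2 was at 978, 394 and 164 CPM. Col3a1 (chr1:45311538-45349706), the chain of type III collagen, was at 1550, 647 and 410 CPM. All 3 genes stood highest in corn oil replicate 2. Lum was at 1069, 288 and 103 CPM, and Dcn at 5362, 6853 and 4326 CPM. Dcn alone among the 5 was highest in 4OHT replicate 1, the library with most of the Dcn-only members carrying epithelial transcripts. Per cell, the collagen-positive members held a median of 20 Dcn UMIs (0 to 145) and 2 each of Col1a1 (0 to 28), Col1a2 (0 to 36), Col3a1 (0 to 48) and Lum (0 to 35).

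Promoter sequence is shown for the 3 genes of interest that the RefSeq promoter table on GRCm38.p6 holds, 2 collagens of the rule and the adventitial marker Pi16, since their transcripts mark these cells. Each window runs from 250 bases before to 50 after the RefSeq start, on the plus strand, 5′ to 3′. Capitals mark the motif CCAAT on either strand (written ATTGG where it lies on the other), a motif known from collagen promoters. It is present in 12289 of 32851 promoters of the table (37.4%), so a match is common.
Col1a2 at chr6:4505368-4505667: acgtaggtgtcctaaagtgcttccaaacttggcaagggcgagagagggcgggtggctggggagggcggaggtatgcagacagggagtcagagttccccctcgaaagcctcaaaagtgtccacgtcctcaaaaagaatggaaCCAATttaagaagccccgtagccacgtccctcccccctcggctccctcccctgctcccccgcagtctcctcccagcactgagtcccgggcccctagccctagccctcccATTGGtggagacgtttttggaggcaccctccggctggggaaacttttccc
Col3a1 at chr1:45311288-45311587: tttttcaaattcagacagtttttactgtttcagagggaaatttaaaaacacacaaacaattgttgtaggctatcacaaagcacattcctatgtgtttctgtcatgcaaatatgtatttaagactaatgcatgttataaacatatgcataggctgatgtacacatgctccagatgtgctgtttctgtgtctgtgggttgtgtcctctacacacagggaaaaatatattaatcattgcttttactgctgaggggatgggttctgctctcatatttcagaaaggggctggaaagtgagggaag
Pi16 at chr17:29318632-29318931: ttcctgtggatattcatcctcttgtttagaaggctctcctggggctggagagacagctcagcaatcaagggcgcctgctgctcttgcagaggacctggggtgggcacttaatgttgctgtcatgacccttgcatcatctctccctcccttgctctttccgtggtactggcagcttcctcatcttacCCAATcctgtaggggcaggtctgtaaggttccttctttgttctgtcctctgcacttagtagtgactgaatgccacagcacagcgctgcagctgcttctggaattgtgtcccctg
The Col1a2 window holds 2 matches, the Pi16 window 1 and the Col3a1 window none of these letters. The Col1a2 and Pi16 windows lie inside the wider gene bounds that GENCODE M21 gives, so the 2 annotations place the start differently.

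Members were then compared with all other cells of the same library, over the genes that the rule had not used. Sums of UMIs per library entered edgeR's quasi-likelihood test with the library as a block, for the 3 libraries with at least 10 members. Corn oil replicate 1, with 1 member, was left out of the fit. Of 11168 genes tested, 559 were higher in members (5.01%) and 774 were lower (6.93%) at a Benjamini-Hochberg adjusted p under 0.05, with a median log2 fold change of -0.30 over all genes. Without corn oil replicate 2, which held 72 of the members, 247 were higher and 328 lower. Without 4OHT replicate 1 these were 317 and 323. With collagen-positive members alone the test called 627 of 11066 genes higher (5.67%) and 998 lower (9.02%). Of the genes called over all members, 517 of the 559 higher genes and 677 of the 774 lower genes were called again. A gene nearly absent from other cells could enter the test only through the members' sums, so the counts of higher genes in the lists below, and the fold changes of such genes, Pi16 and Sfrp4 among them, are descriptions. The counts are to be read beside these percentages. Nothing says that the cells of a library came from separate animals, so the p-values rest on 3 libraries. In edgeR the spread assigned to a gene is estimated with help from other genes. A p-value therefore does not measure the gene's own spread between the 3 libraries alone. The results with 1 library left out are to be read beside it.

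The 12 genes named for the largest increases were mostly of matrix and of surface or secreted proteins. Pi16 (chr17:29317680-29330593), a peptidase inhibitor of adventitial fibroblasts, stood at 877, 56.3 and 513 CPM in members and at most 1.65 CPM in other cells. Its log2 fold change was 9.22 (SE 0.56). Sfrp4, a secreted Wnt antagonist, stood at 242, 24.6 and 431 CPM in members and had 4 UMIs in all other cells of these libraries. Both genes were lowest in 4OHT replicate 1. Clec3b, the plasminogen-binding protein tetranectin, stood at 2047, 837 and 595 CPM in members against 8.36, 1.20 and 2.62 CPM in other cells (log2 fold change 7.90, SE 0.51). Dpt, dermatopontin, which binds decorin, stood at 518, 211 and 61.5 CPM in members. Efemp1 and Mfap4, proteins of elastic fibres, and Pcolce2, which promotes procollagen cleavage, had log2 fold changes of 9.09, 7.94 and 9.17. The remaining 5 were Pla1a (a phospholipase), Ms4a4d (a membrane protein), Ifi205 (an interferon-inducible gene), Dpep1 (a dipeptidase) and the chemokine Ccl2, between 8.04 and 8.75. In each of the 12, every member sum exceeded every sum of other cells. Leaving out 1 library at a time gave log2 fold changes of 8.41 to 9.94 for Pi16, 9.79 to 13.2 for Sfrp4 and 7.75 to 8.87 for Ccl2, and no call among the 12 was lost.

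**Figure D4:**
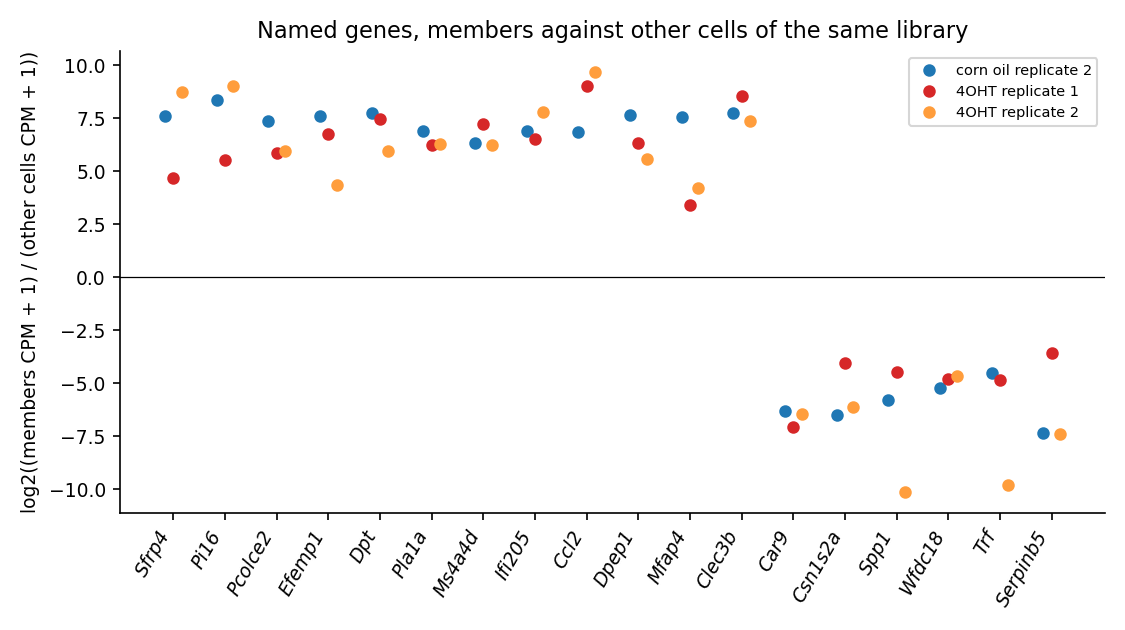
Points give, for each named gene and library, log2((CPM in members + 1)/(CPM in other cells + 1)), on a linear axis, where the added 1 CPM pulls low genes towards 0. Genes were named only if they lay on the same side in every fitted library. The 12 genes on the left are therefore above 0 in all 3 libraries and the 6 on the right below 0 in all 3. Of the 12, Mfap4, Sfrp4 and Pi16 spread most between libraries.

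The 6 genes named for the largest decreases belong to epithelium. Car9, a carbonic anhydrase, and Csn1s2a, a casein, had no UMI in the members' 630537 UMIs. Set against a floor of 3 counts over those sums, Car9 was at least 21.2-fold lower and Csn1s2a at least 11.5-fold lower than in other cells. Spp1 (osteopontin), Wfdc18 and Trf (transferrin) were present at low levels, with log2 fold changes of -5.77, -5.37 and -5.33. Serpinb5 (maspin, of basal epithelium) had 4 UMIs, all in Dcn-only members. Of the epithelial markers outside the rule, all 5 basal ones tested (Krt17, Trp63, Oxtr, Myh11 and Lgals7) and all 5 luminal ones (Krt19, Csn3, Ltf, Elf5 and Wfdc18) were lower. Krt19 shows what the Dcn-only members add: at 20.2, 668 and 205 CPM its log2 fold change was -1.90 over all members and -5.16 over collagen-positive ones. Without corn oil replicate 2 the call for Krt19 was lost (edgeR adjusted p = 0.71), and likewise without 4OHT replicate 2 (0.25). Prlr (0.46 over all members, -5.15 over collagen-positive ones), Wfdc2, Cd24a and Ly6d did not pass over all members and were lower over the collagen-positive ones. These genes were picked after they were seen in Dcn-only members, so their fall on leaving out those members is a description. Ly6d had 287 UMIs in members, none of them in collagen-positive cells.

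Fibrillar and associated collagens outside the rule were higher as a group. Of 13 tested, 9 were higher and none lower, with a median log2 fold change of 3.18 against -0.30 over all genes. Col6a1, Col6a2 and Col6a3, the chains of the beaded-filament collagen VI, had log2 fold changes of 3.18, 4.53 and 3.63. Col6a3 was at 155, 179 and 61.5 CPM in members and 11.1, 5.92 and 9.54 CPM in other cells. Col5a1, Col5a2 and Col5a3, which set the width of type I fibrils, had 5.56, 4.05 and 7.58. The basement membrane chains Col4a1 and Col4a2 did not pass. The call for Col8a1 was lost without the Dcn-only members, which held 15 of its 24 UMIs. Its log2 fold change was 1.77 over all members and 0.47, adjusted p = 0.74 in edgeR, over collagen-positive members.

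Of 13 collagen-processing genes tested, 7 were higher and none lower (median 1.22): Pcolce, Bmp1, Adamts2, Lox, Loxl1, Loxl2 and Sparc. The call for Bmp1 was lost without corn oil replicate 2 (edgeR adjusted p = 0.79) and without 4OHT replicate 1 (0.10). Pcolce, the procollagen C-proteinase enhancer, was at 165, 137 and 103 CPM in members and at most 1.80 CPM in other cells (log2 fold change 6.23). Loxl1, a lysyl oxidase that cross-links elastin and collagen, was at 182, 84.4 and 123 CPM (6.52). The prolyl and lysyl hydroxylases P4ha1, P4ha2, Plod1 and Plod2 and the collagen chaperones Serpinh1 and Fkbp10 did not pass. Sparc was at 2491, 1200 and 1210 CPM against 724, 306 and 481 CPM, and its call was lost without corn oil replicate 2 (edgeR adjusted p = 0.44) and without 4OHT replicate 1 (0.17).

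Proteoglycans and matrix glycoproteins gave the most higher genes of any list: 19 of 24 tested, none lower, with a median of 4.13. Mfap5, a microfibril protein, was at 965, 359 and 164 CPM in members against 4.18, 1.62 and 1.44 CPM (log2 fold change 7.13). Tnxb, tenascin X, had a log2 fold change of 7.37, Nid1 (nidogen, of basement membranes) 5.15 and Fn1 (fibronectin) 3.34. Fn1 stood at 360 CPM in corn oil replicate 2 and at 66.8 and 82.0 in the 4OHT libraries. Elastin (Eln), Postn, Tnc, Fmod and Prelp did not pass. Over collagen-positive members Tnc was higher too, making 20 of 24.

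Proteases and their inhibitors were higher for 13 of 17 tested, with a median of 3.42. Mmp3 (stromelysin) stood at 971, 542 and 0 CPM in members, so 4OHT replicate 2 had none, and its log2 fold change was 6.41. Mmp2 (gelatinase A) stood at 430, 208 and 123 CPM against at most 20.5 CPM in other cells (3.42). Serpinf1, pigment epithelium-derived factor, stood at 1153, 440 and 369 CPM against at most 7.24 CPM in other cells, and Ctsk, the collagen-degrading cathepsin K, had 7.36. Timp1 and Timp2, which block the Mmp proteases, had 3.72 and 2.13. Timp3 stood at 178, 49.2 and 841 CPM, and its call was lost without 4OHT replicate 2 (edgeR adjusted p = 0.69) and without corn oil replicate 2 (0.61).

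**Figure D5:**
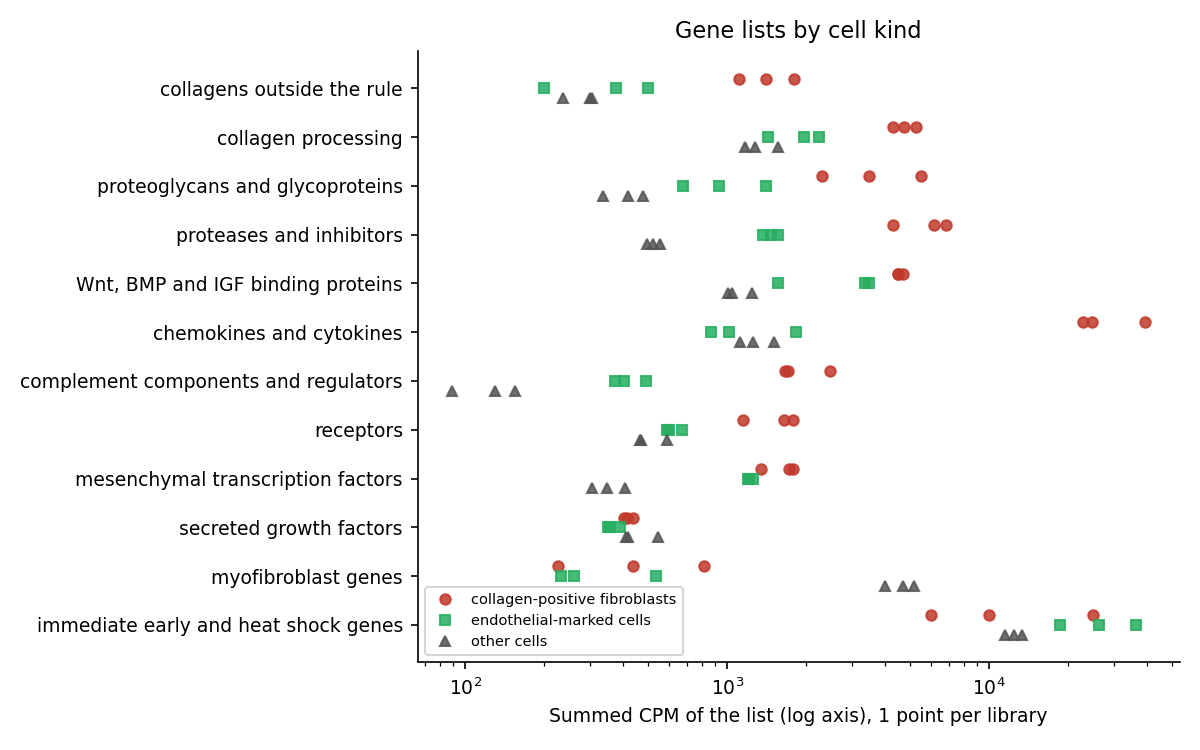
Each point is the summed CPM of a gene list in 1 library (log axis), for collagen-positive members (circles), endothelial-marked cells (squares) and all other cells (triangles). For chemokines and cytokines, collagen-positive members lie at 22858 to 39369 CPM and other cells at 1121 to 1506 CPM.

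Chemokines and cytokines were higher for 16 of 19 tested, with a median of 4.09, and Cxcl14 was lower. Their summed level was 25910, 24825 and 12035 CPM in members and 1506, 1121 and 1258 CPM in other cells. Ccl2 (chr11:82035571-82037453), which attracts monocytes, was at 11990, 6919 and 7524 CPM in members and at 102, 12.3 and 8.05 CPM in other cells (log2 fold change 8.15, SE 0.52, edgeR adjusted p = 2.1e-51). Its neighbours on chromosome 11 in the same annotation, Ccl7 (82045712 to 82047525), Ccl11 (82057823 to 82062955) and Ccl8 (82115185 to 82116799), had log2 fold changes of 7.01, 7.52 and 7.90. These 4 genes stood above every sum of other cells in all 3 libraries. Cxcl1 and Cxcl5, neutrophil attractants on chromosome 5, differed more between libraries. Cxcl1 was at 3267, 6124 and 328 CPM, and Cxcl5 at 551, 2705 and 0 CPM, highest in 4OHT replicate 1. With 1 library left out their log2 fold changes ranged from 2.16 to 4.19 and from 5.16 to 8.56. Ptx3, a soluble pattern-recognition protein, was at 2447, 1291 and 1128 CPM and Il6 at 286, 278 and 103 CPM, with log2 fold changes of 4.09 each. Saa3, an acute-phase protein, had UMIs in members of corn oil replicate 2 alone (719 CPM).

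The chemokine transcripts were uneven between cells. Among collagen-positive members, 59 of 98 had a Ccl2 UMI, with a median of 4 and a maximum of 667 UMIs. By library this was 40 of 66 cells in corn oil replicate 2, 15 of 25 in 4OHT replicate 1 and 4 of 7 in 4OHT replicate 2. Ccl7 was detected in 56 cells, 50 of which also had Ccl2 (84.7% of the Ccl2 cells and 89.3% of the Ccl7 cells). Isg15, an interferon-induced ubiquitin-like protein, was detected in 55 cells, and 48 of them had Ccl2 (87.3% of the Isg15 cells). These overlaps were counted without thinning, in cells of 1026 to 20135 UMIs, so they are not adjusted for depth. After thinning, Ccl2 was in 53.1% of collagen-positive members, 3.0% of endothelial-marked cells and none of the 95 Dcn-high non-members.

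Interferon-induced genes, a list written after the values were seen, were higher for 7 of 9. Their summed level was 9086, 4798 and 5659 CPM in members and 1559, 719 and 462 CPM in other cells, so corn oil replicate 2 was highest in both kinds of cell. Over collagen-positive members alone the level was 9650, 7413 and 9412 CPM, so corn oil replicate 2 and 4OHT replicate 2 lay close together there. Endothelial-marked cells stood at 6710, 663 and 3323 CPM, and against them 2 of the 9, Cxcl10 and Ifit3, were higher in members. Isg15 stood at 1731, 830 and 1210 CPM in members (log2 fold change 2.33) and Cxcl10 at 2192, 834 and 1456 CPM (5.45). Complement genes were higher for 8 of 9 tested, and Cd59a was lower, a call lost without corn oil replicate 2 (edgeR adjusted p = 0.12) or 4OHT replicate 1 (0.14). Serping1 stood at 1378, 651 and 492 CPM in members against 28.5, 10.7 and 7.33 CPM (5.38), and C1ra, a protease of the C1 complex, had a log2 fold change of 4.13. C3 stood at 299, 49.2 and 82.0 CPM, and its call was lost without corn oil replicate 2 (edgeR adjusted p = 0.95) and without 4OHT replicate 2 (0.10).

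Signals for the epithelium were a mixed group. Of 15 secreted growth factors tested, 4 were higher (Fgf7, Fgf2, Wnt2 and Igf1) and 4 lower (Vegfa, Tgfb2, Tgfb3 and Nrg1), with a median of -0.56. The calls for Tgfb3 and Nrg1 were lost on leaving out any of the 3 libraries, and that for Tgfb2 without 4OHT replicate 1 (edgeR adjusted p = 0.61). Over collagen-positive members 5 were lower: Nrg1 did not pass, and Gas6 and Wnt5a were called. Fgf7, which acts on epithelial FGF receptors, stood at 47.1, 59.8 and 20.5 CPM in members and at most 0.718 CPM in other cells (log2 fold change 6.02). Wnt2 stood at 30.3, 14.1 and 41.0 CPM (7.49), from 15 UMIs in members. With 1 library left out Wnt2 could not always be tested, and where tested its log2 fold change was 7.26. Igf1 was low, at 30.3, 3.52 and 0 CPM, and its call rested on corn oil replicate 2 (edgeR adjusted p = 0.95 without it). Fgf2 had its call lost on leaving out any of the 3 libraries, with adjusted p from 0.10 to 0.49 in edgeR. Fgf10 had 6 UMIs in members and was not tested.

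Among binding proteins for Wnt, BMP and IGF ligands, 5 of 12 tested were higher and 2, Igfbp2 and Igfbp3, lower, the latter not without 4OHT replicate 1 (edgeR adjusted p = 0.46). Igfbp6, which binds IGF-II, was at 1049, 1594 and 574 CPM in members against at most 6.93 CPM (log2 fold change 7.15). Fstl1, a follistatin-like protein, had 3.44. Igfbp7 was at 1482, 879 and 246 CPM against 176, 130 and 183 CPM, and its call was lost without corn oil replicate 2 (edgeR adjusted p = 0.38) and without 4OHT replicate 1 (0.11). Sfrp2 was at 111, 0 and 164 CPM, lost without corn oil replicate 2 (0.43).

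Receptors were higher for 5 of 18 tested and lower for Igf1r, whose call was lost without 4OHT replicate 1 (edgeR adjusted p = 0.71) or 4OHT replicate 2 (0.058). Pdgfra, the PDGF receptor of many fibroblasts, was at 313, 295 and 103 CPM in members against 1.02 and 0.462 CPM in other cells of the 4OHT libraries (log2 fold change 7.32). It was detected in 53 of 98 collagen-positive members and, after thinning, in none of the 203 endothelial-marked cells. Ddr2, a collagen receptor, had 6.20, Thy1 5.16, Pdgfrb 4.86 and Il1r1 4.87. Pgr, the progesterone receptor, did not pass over all members and was lower over collagen-positive ones (log2 fold change -2.85), Dcn-only members holding 20 of its 22 UMIs. Esr1 had 9 UMIs and passed in neither set.

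Mesenchymal transcription factors were higher for 10 of 16 tested, with Osr1 and Snai2 lower and a median of 3.12. Twist2 was at 94.1, 137 and 41.0 CPM in members against at most 0.765 CPM (log2 fold change 7.72). Twist1 had 5.90, Zeb2 5.66 and Ebf1 4.92. Prrx1, a homeobox gene of limb and body-wall mesenchyme, was at 360, 412 and 82.0 CPM against 22.4, 24.0 and 28.0 CPM (3.09). The call for Osr1 was lost without 4OHT replicate 1 (edgeR adjusted p = 0.11). Snai2 did not pass over collagen-positive members, nor without either 4OHT library (0.68 and 0.14). Against endothelial-marked cells 6 of the list could be tested, with a median of -0.14. Prrx1 and Zeb2 were higher, Tcf4 was lower, and Ebf1, Zeb1 and Klf4 did not pass. The summed list was at 1765, 1196 and 943 CPM in members and 1778, 1718 and 1345 CPM in collagen-positive ones. Endothelial-marked cells stood at 1205, 1251 and 1195 CPM. Tfap2c, the floxed gene, had 10 UMIs in 5 of the 133 members: 26.9, 7.04 and 0 CPM, against 163, 215 and 220 CPM in other cells (log2 fold change -4.06). After thinning, none of 98 collagen-positive members had a Tfap2c UMI, against 16.8% of 2000 other cells drawn at random.

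Fibroblast states known from other tissues were read from fixed lists. Adventitial markers were higher for 5 of 8 tested, Pi16, Dpp4, Cd248, Ly6c1 and Cd55, and for 6 over collagen-positive members, where Sema3c passed. Against endothelial-marked cells 4 could be tested: Pi16 was higher, and Ly6c1, Cd55 and Anxa3 did not pass. After thinning, Ly6c1 was in 29.6% of collagen-positive members and 30.5% of endothelial-marked cells, so it is not particular to the members. In collagen-positive members, counted without thinning here, Pi16 was detected in 27 of 98 cells and Ly6c1 in 48, with both in 24. Of the 27 Pi16 cells, 5 also had Dpp4 and 3 had Col15a1, a collagen of parenchymal fibroblasts detected in 14 cells. By library, Pi16 was in 20 of 66 cells of corn oil replicate 2, 5 of 25 of 4OHT replicate 1 and 2 of 7 of 4OHT replicate 2. Of the Pi16 cells, 10 had a Ccl2 UMI (37.0%), whereas 59 of all 98 did. Lpl, lipoprotein lipase, and Ggt5 were higher in the preadipocyte list (2 of 7 tested), and Adipoq had no UMI in members or in other cells of these libraries. Lpl was at 279, 141 and 20.5 CPM (log2 fold change 5.04). Contractile genes went the other way: Acta2, Tagln, Myl9 and Cnn1 were lower, and of the myofibroblast list Cthrc1 alone was higher, a call lost without corn oil replicate 2 (edgeR adjusted p = 0.77). Acta2 was at 232, 63.3 and 308 CPM in members and 2732, 1996 and 2714 CPM in other cells, which include myoepithelium.

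Further mesenchymal transcripts, picked after their values were seen, were higher than in the other cells as a whole. Gsn (gelsolin, which severs actin) was at 4360, 3701 and 1005 CPM against at most 86.7 CPM (log2 fold change 4.71), and was detected in 95 of 98 collagen-positive members. Lgals1 (galectin 1) was at 2192, 2107 and 1538 CPM against at most 323 CPM (2.36). Vim was at 985, 770 and 2624 CPM against 199, 334 and 329 CPM (1.68). Vim stood highest in 4OHT replicate 2, where the 2 cells with Schwann markers held 110 of its UMIs, and its call was lost without corn oil replicate 2 (edgeR adjusted p = 0.13). It is not particular to the members: after thinning it was in 45.9% of collagen-positive members and 65.5% of endothelial-marked cells.

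Immediate early and heat shock genes, which cells switch on quickly under stress, were higher for none of 15 tested and lower for 5 (Hspb1, Atf3, Junb, Nr4a1 and Ier3). Their summed level in members was 23345, 5041 and 8016 CPM, while other cells lay between 11520 and 13390 CPM. Hspa1a, an inducible heat shock protein, was at 12374, 1207 and 3055 CPM in members and between 1236 and 1615 CPM in other cells of these libraries. The members of corn oil replicate 2 thus stood apart from those of the 4OHT libraries in these genes, and the part of these genes in other differences between libraries was not tested. Junb and Nr4a1 did not pass over collagen-positive members or without either 4OHT library. Ier3 did not pass without corn oil replicate 2 (edgeR adjusted p = 0.20), nor Atf3 without 4OHT replicate 1 (0.16).

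Endothelial-marked cells, another non-epithelial kind, served as a second comparison. These were 203 cells with at least 8 UMIs of endothelial markers, more than of the epithelial genes: 7, 58, 35 and 103 in the 4 libraries. Of 2647 genes tested, 118 were higher in fibroblast members (4.46%) and 192 lower (7.25%), leaving out the genes of both rules. With collagen-positive members alone these were 149 (6.59%) and 185 (8.18%) of 2262 genes. A gene near 0 in endothelial-marked cells could enter this test only through the members' sums, and the reverse holds for genes near 0 in members. Counts of higher and lower genes against endothelial-marked cells, here and above, are therefore descriptions. So are the fold changes and p-values of such genes, Ccl2 among them. Chemokines and cytokines differed in part: 6 of 11 tested were higher, Ccl2, Ccl7, Ccl8, Ccl11, Ptx3 and Cxcl14. Of these, Cxcl14 had been lower in members than in all other cells. Il6, Cxcl1, Cxcl2, Cxcl12 and Ptgs2 did not pass. After thinning, Il6 was in 12.2% of collagen-positive members and 8.37% of endothelial-marked cells, and Cxcl1 in 46.9% and 9.36%. Ccl2 was at 62.2, 24.9 and 15.0 CPM in endothelial-marked cells (log2 fold change 8.25, SE 0.26, edgeR adjusted p = 2.3e-06). Pdgfra had no UMI in endothelial-marked cells of these libraries. Gsn (6.22), Igfbp6 (6.02), Prrx1 (6.81), Mmp2 (5.06) and Col6a3 (3.56) were higher too. Lower genes included Fabp4 (-4.47) and Cd36 (-4.40), lipid-handling genes of capillaries, and Eln (-2.18), Tcf4 (-1.89) and Igfbp3 (-2.26). Vim and Col4a1 did not pass. Krt19 and Prlr were also higher in all members than in endothelial-marked cells, and Dcn-only members held 108 of the 109 Prlr UMIs in members.

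The effect of 4OHT within fibroblasts was not tested, because corn oil replicate 1 held 1 member and no collagen-positive one. Every triple above therefore sets 1 corn oil library beside 2 of 4OHT, and library and treatment cannot be told apart. Among collagen-positive members Ccl2 was at 11555 CPM in corn oil replicate 2 and at 11108 and 14513 CPM in the 4OHT libraries. Pi16 was at 896 CPM beside 90.4 and 989 CPM, and Pdgfra at 330 CPM beside 469 and 198 CPM. In these 3 genes the corn oil value lay between the 2 4OHT values. In others it was above both: Col1a1 was at 947 CPM beside 412 and 395 CPM, Col3a1 at 1672 CPM beside 1040 and 791 CPM, and Clec3b at 2130 CPM beside 1277 and 1147 CPM. The summed immediate early and heat shock genes were at 24938 CPM beside 6017 and 10005 CPM. These 6 genes were picked after their values were seen.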

How the data were processed

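The deposited files hold raw UMI counts per gene and cell, made by the authors with Cell Ranger 3.0.1 on a mouse mm10 reference, per the submitters' processing notes. The files list 31053 genes, and strand, intron use and the cell calling settings are not given in the sources used here. Counts were summed per library over members and over other cells and scaled to CPM. The test of these sums was the quasi-likelihood test of edgeR 4.0.16 in R 4.3.3 with TMM factors, filterByExpr and Benjamini-Hochberg adjustment, and DESeq2 1.42.0 was an alternative. Libraries needed at least 10 members, or 5 in the collagen-positive alternative. The 10 genes of the rule, and the 7 endothelial markers in the second comparison, were left out of the counts of called genes. Shares were compared by an exact permutation test, and intervals are Clopper-Pearson intervals at 95%. They and the floors of 3 counts cover counting error only. Doublets were scored with Scrublet in scanpy 1.11.5, taking the highest scores at 0.8% per 1000 cells. They were kept, and removal was an alternative. On simulated counts for members against other cells the test recovered 31% of 200 genes changed by a log2 of 2, among 11178 genes, with 1 false call. Whether those counts varied between libraries as much as the members' sums did was not tested. The rate of false calls in the deposited data was not tested either.

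Members, lists and tests were chosen with earlier results of these data known. Named genes were the 12 largest increases and 6 largest decreases at 100 CPM or more in the higher side, called and on 1 side in all fitted libraries, and the list members most abundant in members; some further genes were named after their values were seen. Overlapping genes and close family members, such as Ifit3 and Ifit3b, can share reads. Gene positions are from GENCODE M21 on GRCm38. Some results are not reported here.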

Additional observations from a re-analysis of the deposited data

How the results depend on the processing

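The share difference of -0.240 points kept its sign with other marker limits, every deposited cell, thinned cells, doublets removed and collagen-positive members (-0.447 to -0.170). Leaving out 1 library gave -1.08 to 0.596 points, with 0.596 without corn oil replicate 2 and 0.163 without 4OHT replicate 2.

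For members against other cells, leaving out 1 library gave 247 to 615 higher and 323 to 598 lower genes; the lowest count of higher genes came without corn oil replicate 2. DESeq2's own test called 484 higher and 397 lower, which moved the share of higher genes among the calls from 41.9% to 54.9%. DESeq2 size factors in edgeR shifted the median log2 fold change by 0.11 and gave 640 and 728. No filter on low counts gave 660 and 836, and the fit with no replicate block, which ignores the pairing of both sums within a library, 553 and 703. Against endothelial-marked cells the 310 calls became 713 with no filter, 254 with DESeq2, 355 with no replicate block, 334 with collagen-positive members and 291 to 369 with 1 library left out.

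Of 1418 values of 119 genes named with a call, 1324 kept direction and call, 94 kept direction and lost the call, and none reversed. DESeq2's test lost 17 of these calls, among them Krt19, C3, Timp3, Igf1 and Saa3, the fit with no replicate block lost 15 and collagen-positive members 5. Leaving out 1 library ended 27 of the 119 calls at least once, and moved the fold change of 61 by over 1.5-fold. Genes with no test in a fit are not counted as lost. Without corn oil replicate 2, 113 of the 119 were tested, and 118 were tested without each of the 4OHT libraries. No paired analysis was possible because corn oil replicate 1 held 1 member, so fibroblasts could not be compared between treatments by replicate number. Depth limits the result: members' sums held 630537 UMIs, 48776 of them in 4OHT replicate 2.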

Other observations

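Below the limit of 1000 UMIs, 4 of 391 barcodes met the other terms of the rule, 3 in 4OHT replicate 1 and 1 in corn oil replicate 2, and 3 of the 4 held at least 1 UMI of Col1a1, Col1a2, Col3a1 or Lum. Scrublet scores placed 11 members among the expected doublets, 8 of them in corn oil replicate 2, and 9 of the 11 were collagen-positive. No member had more than 10% mitochondrial counts.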
